A study of Mus musculus with 9 samples.

Results

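Insulin-like growth factor (IGF) binding proteins and the receptors for IGFs were examined in RNA sequencing libraries of endothelial cells from mouse lung. Of 7 genes asked for, 6 were measured among the 9277 genes of the table, namely the binding protein genes Igfbp3, Igfbp4, Igfbp5 and Igfbp7 and the receptor genes Igf1r and Igf2r. Igfbp6 is not analysed here. The genes were chosen by family name and because Igfbp5 was already known to differ between the genotypes compared, so the genotype differences of all 6 are given as a description and support nothing by themselves. Cells of wild type animals gave 4 libraries (Tie1-WT), and cells of animals whose endothelial receptor Tie1 resists cleavage by proteases gave 5 (Tie1-CR, for cleavage resistant); the names of all 9 carry PBS. No strain, age, sex or separate animal of origin is stated for any library, so errors and p-values measure only the spread between libraries, which may be technical.

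IGF1 and IGF2 are secreted growth factors that act through the tyrosine kinase IGF1 receptor, which recruits insulin receptor substrate adaptors and activates PI3K and AKT. The classical binding proteins hold IGFs outside cells with high affinity and either keep them from the receptor or carry them to it, and proteases release the ligand by cutting the binding protein. Igfbp7 is a relative that binds IGFs weakly, is abundant in blood vessel endothelium and is a ligand of the endothelial surface receptor CD93. The IGF2 receptor, encoded by Igf2r, has no kinase: it clears IGF2 and sorts enzymes tagged with mannose 6-phosphate to lysosomes.

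The depth, inferred from the step between CPM values and not read from counts, was 38208696 to 54408116 counted reads per library, and values are counted reads scaled to the library total (CPM), without a length term. Tie1, the altered gene, measured 2136 ± 42.9 CPM (SD, n = 4) in Tie1-WT and 2433 ± 143 CPM (SD, n = 5) in Tie1-CR, with no overlap between genotypes (limma adjusted p = 0.107). A change of cleavage need not alter the transcript, so this level does not check the labels. The 13 pan-endothelial markers, led by Vwf, were all measured, 1 of them fell (Erg), and they summed to 23388 to 25519 CPM in Tie1-WT and 26073 to 27590 CPM in Tie1-CR, so the defining markers of the labelled cell type were present in every library. With bulk RNA, fewer cells of a type and less RNA per cell cannot be told apart.

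The stretch just upstream of the gene start is shown for the 4 binding protein genes, since Igfbp5 stood apart from the other 3 in transcript level between genotypes. Sequences are those of RefSeq in GRCm38.p6, given 5′ to 3′ on the strand of the gene. They end at the base before the gene start, and that of Igfbp5 ends 19 bases earlier because the GENCODE gene model starts there. They lie at chr1:72874885-72875015 (Igfbp5, minus strand), chr11:7213924-7214073 (Igfbp3, minus strand), chr11:99041094-99041243 (Igfbp4, plus strand) and chr5:77408046-77408195 (Igfbp7, minus strand). Capitals mark matches to TATANA or TATTTAA, the letters of TATA elements that place the start of transcription, and to GGGCGG, the GC box bound by SP and KLF factors, on either strand.
Igfbp5: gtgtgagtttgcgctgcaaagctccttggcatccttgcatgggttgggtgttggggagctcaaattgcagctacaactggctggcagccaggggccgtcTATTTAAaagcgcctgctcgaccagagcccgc
Igfbp3: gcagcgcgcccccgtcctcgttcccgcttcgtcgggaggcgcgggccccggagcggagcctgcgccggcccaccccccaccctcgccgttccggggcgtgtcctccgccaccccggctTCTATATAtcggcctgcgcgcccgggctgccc
Igfbp4: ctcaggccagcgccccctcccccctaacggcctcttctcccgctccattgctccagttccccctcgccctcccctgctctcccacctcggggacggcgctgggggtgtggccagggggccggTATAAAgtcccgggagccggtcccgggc
Igfbp7: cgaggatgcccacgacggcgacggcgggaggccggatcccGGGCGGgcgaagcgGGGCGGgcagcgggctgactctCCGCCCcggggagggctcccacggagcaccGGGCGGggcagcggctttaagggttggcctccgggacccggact

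Igfbp5 held TATTTAA at bases 32 to 26 before its GENCODE start, and 2.23% of 32851 mouse upstream windows of 150 bases hold these letters. Igfbp4 held TATAAA at bases 28 to 23 before its start, and Igfbp3 held overlapping TATANA matches on both strands within bases 32 to 25, against 13.35% of all windows. Igfbp7 had no TATA match in the window and 4 GC boxes, a motif present in 28.62% of windows. The GC content of the 150 bases was 55.3% for Igfbp5, near the median of 54% over all windows, and 70.7% to 78.7% for the other 5 genes. No window of the 6 genes held the letters of FOXO (GTAAACA), AP-1 (TGANTCA), RBPJ (GTGGGAA) or SOX (ATTGTT) sites on either strand. A single EGR match (GCGNGGGCG) lay upstream of Igf2r, against 3.81% of windows, where it overlapped 2 GC boxes. These matches describe the letters only.

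Compared per kilobase of exons, the 6 transcripts spanned a wide range, and Igfbp7 was by far the most abundant. Igfbp7 measured 1045 CPM per kb on average over the 9 libraries (range 807 to 1284), and Igfbp4, which encodes a mainly inhibitory binding protein, 132 CPM per kb (114 to 148). Igf2r followed at 11.7 CPM per kb (9.73 to 13.7) and Igf1r at 6.15 (5.49 to 7.02). Igfbp5 measured 5.01 CPM per kb (2.69 to 8.38) and Igfbp3, the gene of the main IGF carrier of serum, 3.61 (2.31 to 4.87). The first 4 kept this order in 9 of 9 libraries, with neighbours apart by 7.84-fold (Igfbp7 over Igfbp4), 11.3-fold (Igfbp4 over Igf2r) and 1.90-fold (Igf2r over Igf1r), each with a two-sided exact sign-flip permutation p of 0.0039, the smallest that 9 libraries can give, and 0.0065 after adjustment over the 5 neighbouring pairs. Below Igf2r, neighbours did not pass over all 9 libraries. Igf1r exceeded Igfbp5 in 6 of 9 libraries (adjusted exact permutation p = 0.0732), namely in 4 of 4 of Tie1-WT and 2 of 5 of Tie1-CR. Igfbp5 exceeded Igfbp3 in 7 of 9 (adjusted exact permutation p = 0.0977), namely in 2 of 4 and 5 of 5. Igf1r and Igfbp3, which are not neighbours and were not tested, kept their order in 9 of 9. With the longest transcript of each gene as its length, Igf1r exceeded Igfbp5 in 9 of 9 libraries by 1.93-fold (adjusted exact permutation p = 0.0049) and Igf2r exceeded Igf1r by 1.36-fold.

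**Figure D1:**
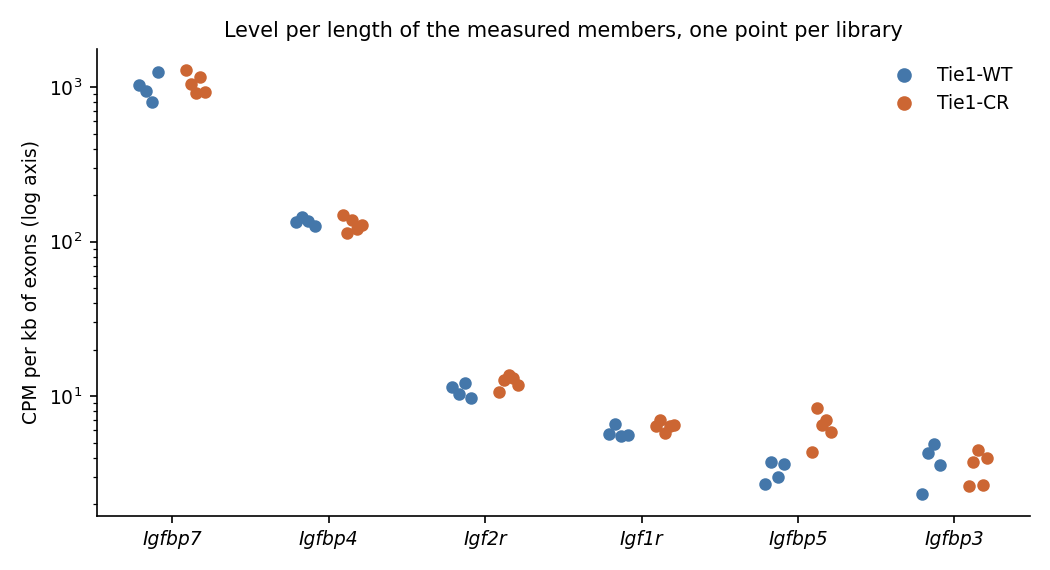
Level per length of the 6 measured genes in CPM per kilobase of exons on a log axis, with 1 point per library (blue Tie1-WT, n = 4; orange Tie1-CR, n = 5). Igfbp7 lies between 807 and 1284 in all libraries, while Igf1r, Igfbp5 and Igfbp3 lie within 2.31 to 8.38.

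Igfbp5 encodes a binding protein that attaches to extracellular matrix and can both hold IGFs and act without them. Its gene (ENSMUSG00000026185.8) lies on chromosome 1 from 72857932 to 72874884 in GRCm38, on the minus strand. In the 4 Tie1-WT libraries it measured 16.1, 22.4, 17.9 and 21.8 CPM. In the 5 Tie1-CR libraries it measured 26.2, 50.3, 38.8, 42.0 and 35.3 CPM. Every Tie1-CR library lay above every Tie1-WT library, with Tie1-CR replicate 1 nearest to the Tie1-WT range and replicate 2 highest. The means were 19.6 ± 3.03 CPM (SD, n = 4) and 38.5 ± 8.87 CPM (SD, n = 5), a ratio of 1.97. The log2 difference was 0.92 with a standard error of 0.16 (95% interval 0.57 to 1.27), on a scale of log2(CPM + 1), and was the 13th highest of all genes. On the CPM scale the SD was larger in Tie1-CR, a difference that was not tested.

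The other binding proteins showed no such separation. Igfbp4 (ENSMUSG00000017493.12, chromosome 11, 99041244 to 99054392) measured 591, 638, 605 and 557 CPM in Tie1-WT and 654, 502, 608, 534 and 568 CPM in Tie1-CR. The genotypes overlapped, and the highest and the lowest value both came from Tie1-CR. Its log2 difference was -0.06 (SE 0.08, 95% interval -0.23 to 0.11). Igfbp7 (ENSMUSG00000036256.13, chromosome 5, 77349240 to 77408041) measured 1257, 1147, 975 and 1509 CPM in Tie1-WT and 1553, 1276, 1103, 1418 and 1132 CPM in Tie1-CR. These also overlapped, with a log2 difference of 0.09 (SE 0.13, 95% interval -0.20 to 0.38). Exons of Polr2b on the opposite strand cover 7.03% of the Igfbp7 exons, and since no source states that strand was used in counting, reads there cannot be assigned to either gene.

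Igfbp3 (ENSMUSG00000020427.11, chromosome 11, 7206086 to 7213923) had the lowest mean CPM of the members, without a length term, at 7.21, 13.4, 15.3 and 11.1 CPM in Tie1-WT and 8.18, 11.8, 14.0, 8.32 and 12.4 CPM in Tie1-CR. All Tie1-CR values lay within the Tie1-WT range. Its log2 difference was -0.08 (SE 0.20, 95% interval -0.53 to 0.37), and its sign turned with library weights (0.11), so the interval allows a change of moderate size either way.

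**Figure D2:**
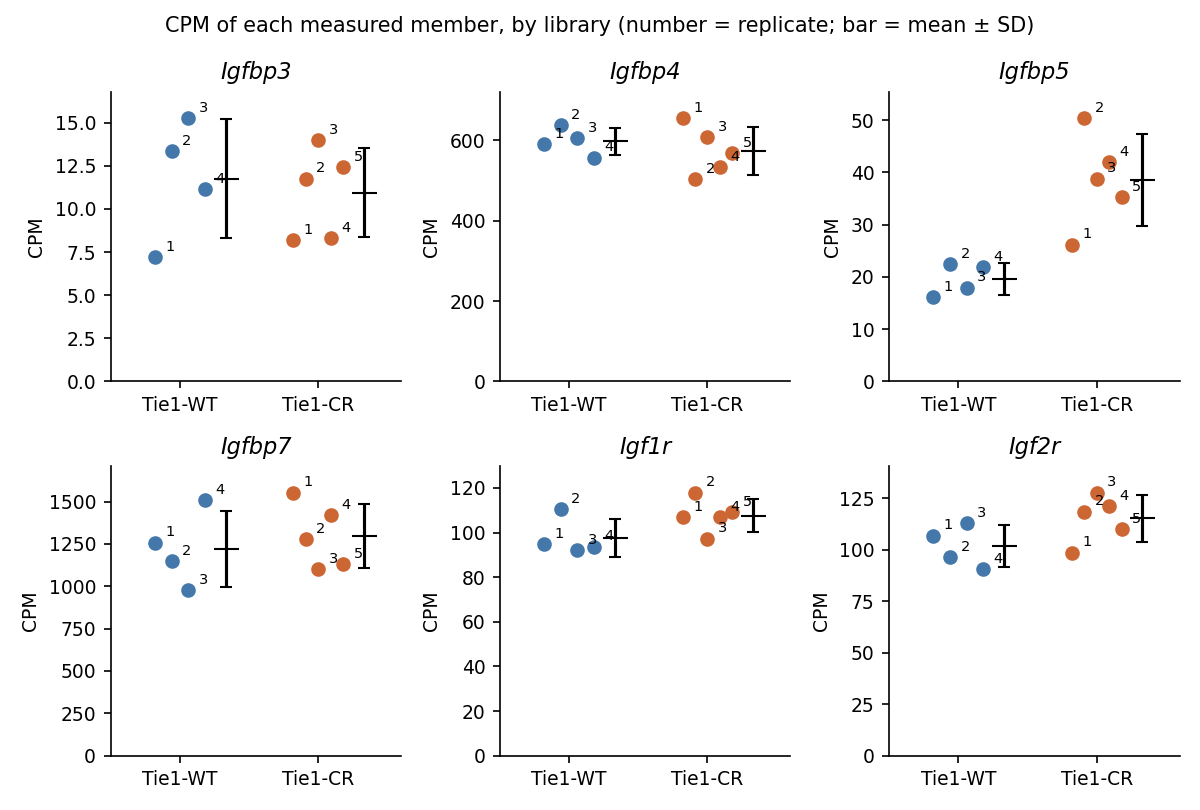
CPM of each measured gene in every library (points, numbered by replicate; blue Tie1-WT, n = 4; orange Tie1-CR, n = 5), with the mean and SD of each genotype as black bars. The genotypes are apart for Igfbp5, at 16.1 to 22.4 against 26.2 to 50.3 CPM, and overlap for the other 5 genes.

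The receptor transcripts lay slightly higher in Tie1-CR, with overlap. Igf1r (ENSMUSG00000005533.10, chromosome 7, 67952827 to 68233668) measured 94.7, 110.45, 92.1 and 93.7 CPM in Tie1-WT and 107, 118, 97.3, 107 and 109 CPM in Tie1-CR. The Igf1r log2 difference was 0.14 (SE 0.07, 95% interval -0.01 to 0.29). With each library left out in turn it ran from 0.105, without Tie1-CR replicate 2, to 0.198, without Tie1-WT replicate 2. Each of these libraries held the highest Igf1r value of its genotype. Igf2r (ENSMUSG00000023830.14, chromosome 17, 12682406 to 12769664) measured 107, 96.5, 113 and 90.6 CPM in Tie1-WT. In Tie1-CR it measured 98.6, 119, 128, 121 and 109.94 CPM, so 3 of 5 libraries lay above the Tie1-WT range. Its log2 difference was 0.18 (SE 0.08, 95% interval -0.01 to 0.36). The antisense RNA gene Airn overlaps Igf2r on the opposite strand but shares 0 exonic bases with it.

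In the fit of all genes with limma (Benjamini-Hochberg adjusted p below 0.05), 1 of the 6 members was called, Igfbp5, in the higher direction. Of all 9277 genes, 4.05% were called, 1.28% as higher and 2.77% as lower in Tie1-CR. Lower genes were 68.4% of the calls, 51.6% with TMM scaling and 50.8% with quantile normalization. The libraries of the genotypes did not overlap for 1 of the 6 members, again Igfbp5, and for 10.5% of all genes. Since this contrast was known when the genes were chosen, nothing is read from these counts. The Igfbp5 call ended without Tie1-WT replicate 1, where the log2 difference was 0.84 (limma adjusted p = 0.0584). Without that library 60 of all 9277 genes were called, against 376 with it.

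**Figure D3:**
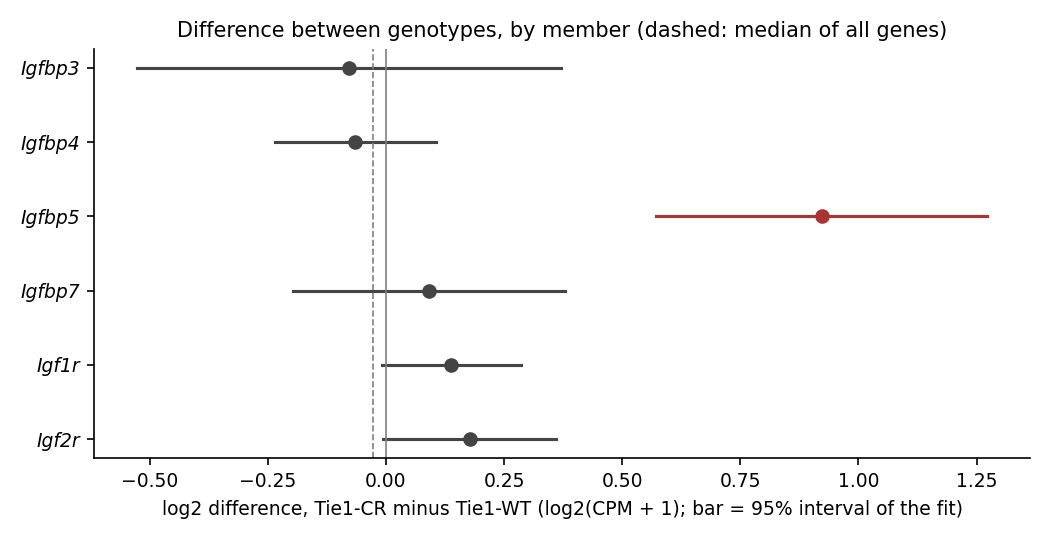
Log2 difference of each measured gene, Tie1-CR minus Tie1-WT, on log2(CPM + 1), with the 95% interval of the limma fit as a bar; the solid line is 0 and the dashed line the median of all genes (-0.03). Igfbp5 lies at 0.92, and the intervals of the other 5 genes include 0.

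Within each library, Igfbp5 was set against the other 3 binding proteins, a ratio that scaling by the library total cannot change except through the added 1 CPM. Igfbp5 was 2.73%, 3.51%, 2.96% and 3.92% of the Igfbp4 CPM in Tie1-WT. It was 4.00%, 10.02%, 6.39%, 7.87% and 6.21% of it in Tie1-CR, so the genotypes were apart by a narrow margin at Tie1-WT replicate 4 and Tie1-CR replicate 1. Against Igfbp3, Igfbp5 was 2.24, 1.68, 1.18 and 1.96 times as high in Tie1-WT and 3.198, 4.28, 2.77, 5.05 and 2.84 times as high in Tie1-CR, again without overlap. Against Igfbp7 the genotypes overlapped, at 1.28% to 1.95% in Tie1-WT and 1.68% to 3.94% in Tie1-CR, because Tie1-CR replicate 1 combined the lowest Igfbp5 of its group with the highest Igfbp7. Against the mean of the other 3 on the log2 scale, Igfbp5 moved from -3.35 ± 0.13 (SD, n = 4) to -2.41 ± 0.37 (SD, n = 5), a difference of 0.94. With each library left out in turn this difference ran from 0.83 to 1.08.

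**Figure D4:**
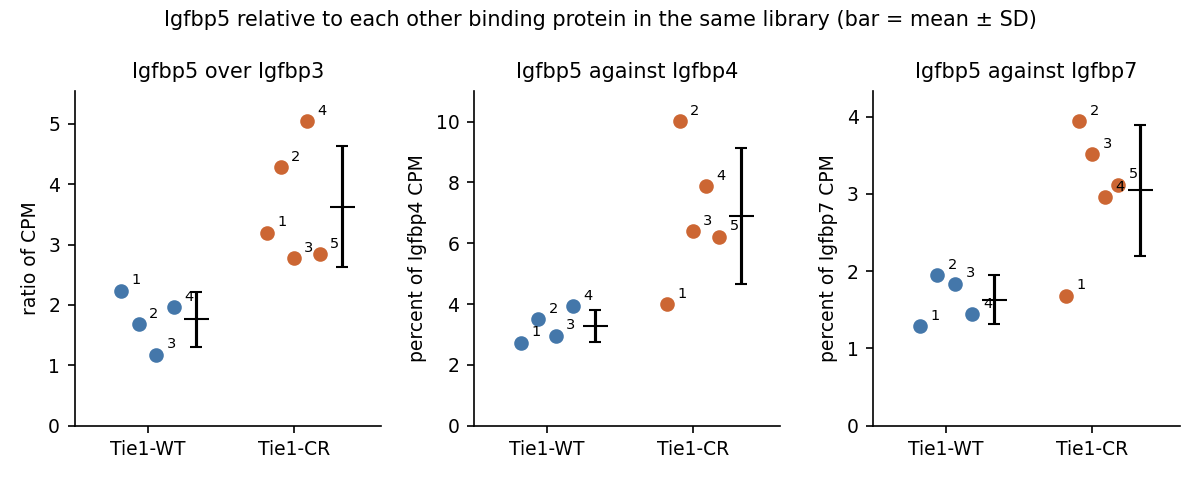
Igfbp5 CPM relative to Igfbp3 (ratio), Igfbp4 and Igfbp7 (percent) in the same library, with points numbered by replicate (blue Tie1-WT, n = 4; orange Tie1-CR, n = 5) and black bars for mean and SD. The genotypes are apart against Igfbp3 and Igfbp4, and Tie1-CR replicate 1 lies within the Tie1-WT range against Igfbp7.

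The makeup of the binding protein transcripts was nearly the same in both genotypes, because Igfbp5 is a small part of them. Per kilobase of exons, the 4 binding proteins together measured 1153 ± 179 CPM per kb (SD, n = 4) in Tie1-WT and 1212 ± 160 (SD, n = 5) in Tie1-CR. Igfbp7 made up 84.8% to 90.4% of this sum in Tie1-WT and 86.0% to 89.99% in Tie1-CR, and Igfbp4 9.13% to 14.4% and 9.27% to 13.0%. Igfbp5 made up 0.286% ± 0.0498 (SD, n = 4) in Tie1-WT and 0.541% ± 0.150 (SD, n = 5) in Tie1-CR, and Igfbp3 0.338% ± 0.141 and 0.299% ± 0.104. The Igfbp5 shares overlapped, since Tie1-CR replicate 1, at 0.302%, lay within the Tie1-WT range of 0.228% to 0.339%. In Tie1-WT the mean level of Igfbp5, 3.26 CPM per kb, was below that of Igfbp3, 3.75. In Tie1-CR it was 6.41 CPM per kb, above the 3.49 of Igfbp3 and level with the 6.41 of Igf1r. The last holds only for this length: with the longest transcript, the Tie1-CR means were 6.41 for Igfbp5 and 9.43 for Igf1r.

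Libraries of the same genotype varied more for each of the 6 members than for the median gene, and most for Igfbp3, Igfbp5 and Igfbp7. The within-genotype SD on log2(CPM + 1) was 0.37 for Igfbp3, 0.29 for Igfbp5 and 0.23 for Igfbp7, at percentiles 98.1, 96.3 and 93.2 of all genes. It was 0.13 for Igfbp4, 0.14 for Igf2r and 0.11 for Igf1r, at percentiles 66.2, 75.4 and 54.4. These percentiles take no account of level: by mean CPM, Igfbp3, Igfbp5 and Igfbp7 lay at percentiles 6.72, 35.9 and 99.2. The library with fewest held an inferred 303 reads of Igfbp3 and 678 of Igfbp5, a counting error of 5.74% and 3.84% if each read is independent. Error from cDNA amplification comes on top of this and was not measured.

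Deviations from the genotype means, which do not use the genotype difference, were compared between members over the 9 libraries. Of 15 pairs, 0 passed with Pearson's r or Spearman's rho after adjustment (two-sided exact permutation within genotypes, lowest adjusted p 0.352 and 0.333), and 0 had an unadjusted p under 0.05 for r. The pair with the largest r in size was Igfbp3 with Igfbp7, which lay opposite to each other (r = -0.72, exact permutation p = 0.0542; rho = -0.83, exact permutation p = 0.0222, adjusted 0.333), and r was -0.81 without the 2 libraries farthest from the Igfbp3 median. Igfbp4 and Igfbp5 gave r = -0.71 (exact permutation p = 0.0705, adjusted 0.352; rho = -0.50, exact permutation p = 0.226, adjusted 0.841), but r was -0.08 without the 2 farthest libraries, so it rests on those. Igf2r and Igfbp7 gave r = -0.69 (exact permutation p = 0.0642, adjusted 0.352; rho = -0.67, exact permutation p = 0.0882, adjusted 0.661), and r was -0.20 without the 2 farthest libraries. The highest positive r, of Igfbp5 and Igf1r, was 0.43 (exact permutation p = 0.277, adjusted 0.830; rho = 0.38, exact permutation p = 0.346, adjusted 0.865), which became -0.28 without the 2 farthest.

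Among 8997 other genes without predicted names, the 5 whose log2(CPM + 1) followed Igfbp5 most closely over the 9 libraries were Slc44a2 (r = 0.96), Prrc2b (0.94), Tmem63a (0.94), Ehd1 (0.94) and Cherp (0.94). With the genotype means removed they were Dennd1a (0.99), Ctdsp2 (0.96), Tmem94 (0.95), Pacs2 (0.95) and Spg11 (0.95). No gene was in both sets. For Igf1r, genes among the closest over all libraries were Rassf9 (0.95), Tcn2 (0.93), Diaph1 (0.91) and Sema6c (0.90), and with the genotype means removed the closest 5 were Lmbr1l (0.96), Adgrl3 (0.94), Rassf9 (0.94), Deaf1 (0.93) and Cpeb3 (0.92). These values were the highest of many over 9 points that share libraries and depth, and they are given as a description.

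Other genes of the IGF pathway were read from lists of ligands, receptors, adaptors, proteases and downstream enzymes. Of 125 listed symbols, older and newer names of a gene counted apart, 87 were measured, and 1 rose and 4 fell (limma adjusted p below 0.05), or 5.75% against 4.05% of all genes. Their median log2 difference was 0.01, against -0.03 over all genes. The ligand genes Igf1 and Igf2 and the binding protein genes Igfbp1 and Igfbp2 are not analysed here.

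At the level of the receptor, the insulin receptor gene Insr measured 91.4 ± 2.78 CPM (SD, n = 4) and 97.1 ± 9.67 CPM (SD, n = 5) (limma adjusted p = 0.505). Of 18 measured adaptors and regulators of the IGF1 receptor, 0 rose and 3 fell, with a list median of -0.05 log2. Socs1, an inhibitor of cytokine and insulin receptor signalling, fell from 58.2 ± 5.55 to 27.1 ± 1.45 CPM (limma adjusted p = 3.6e-05). Its relative Socs3 fell from 699.9 ± 37.4 to 446 ± 98.4 CPM (limma adjusted p = 0.0241). Ptpn11, the phosphatase SHP2 that transmits receptor signals to ERK, fell from 55.2 ± 3.82 to 43.3 ± 3.44 CPM (limma adjusted p = 0.0225). The most abundant other member of that list, the ubiquitin ligase gene Nedd4, measured 603 ± 18.4 and 600.3 ± 29.5 CPM (limma adjusted p = 0.957, with a sign that turned under TMM scaling). Leaving out replicate 1, 2 or 3 of Tie1-WT ended the calls of Socs3 and Ptpn11, and leaving out replicate 4 of Tie1-CR ended that of Socs3 (limma adjusted p from 0.0506 to 0.0795 for Socs3 and from 0.0516 to 0.0884 for Ptpn11). Of all 9277 genes, 60, 135 and 154 passed without those Tie1-WT libraries in turn. Without that Tie1-CR library 183 passed, against 376 with all libraries. The calls of Socs3 and Ptpn11 also ended with the mean of lung epithelial markers as a covariate (limma adjusted p = 0.115 and 0.148). With that covariate 16 of all 9277 genes passed. With arterial endothelial markers as a covariate 0 of all 9277 genes passed, so the loss of these calls there is not particular to these genes. The log2 difference was then -0.30 instead of -0.68 for Socs3 and -0.21 instead of -0.34 for Ptpn11. For Socs1 it was -1.07 in both fits (limma adjusted p = 0.0706 with the covariate).

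Downstream, 0 of 31 measured genes of the PI3K, AKT and mTOR pathway passed in either direction (limma), with a median of 0.02 log2 and a range of -0.21 to 0.21. The most abundant were Akt1, at 344 ± 12.3 and 347 ± 15.1 CPM, and the AKT phosphatase gene Phlpp1, at 271 ± 13.5 and 271 ± 46.7 CPM. The sign of the log2 difference turned with quantile normalization for Akt1 and with TMM scaling for Phlpp1. Of the 13 genes of the mannose 6-phosphate route, in which Igf2r sorts enzymes, 0 passed, with a median of 0.01 log2. Gga1, an adaptor for that sorting, measured 125 ± 5.35 and 129 ± 3.65 CPM, and the retromer gene Vps35 184 ± 8.90 and 173 ± 9.23 CPM.

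Outside the cell, 7 proteases and inhibitors that bear on binding protein cleavage were measured, and 1 rose. Ctsd, the lysosomal protease cathepsin D, rose from 356 ± 10.6 to 428 ± 31.2 CPM (limma adjusted p = 0.0355). Quantile normalization and the epithelial or arterial covariate ended this call, as did leaving out replicate 1, 2 or 3 of the Tie1-WT libraries or replicate 1, 2 or 4 of the Tie1-CR libraries (limma adjusted p from 0.0510 to 0.665). Of all 9277 genes 376 passed without a covariate, 16 with the epithelial covariate and 0 with the arterial covariate. With those libraries left out in turn, 60 to 315 passed. Adamts1, a secreted metalloprotease, measured 1721 ± 427 and 1152 ± 209 CPM (limma adjusted p = 0.103) and passed without Tie1-WT replicate 4 (0.0149). The metalloprotease inhibitor Timp3 measured 415 ± 62.3 and 461 ± 61.7 CPM (limma adjusted p = 0.451). Of 11 measured surface and matrix partners, 0 passed, among them Cd93, the receptor of Igfbp7, at 1966 ± 265 and 1879 ± 115 CPM (limma adjusted p = 0.756), and Ptprb at 3431 ± 291 and 3682 ± 345 CPM (limma adjusted p = 0.530). Of 6 measured secreted proteins that share the N-terminal domain of the binding proteins, 1 fell: Cyr61, a matrix protein of the CCN family, from 469 ± 103 to 243 ± 56.6 CPM (limma adjusted p = 0.0241). Leaving out any of the first 3 Tie1-WT libraries or the fourth of Tie1-CR ended the Cyr61 call (limma adjusted p from 0.0544 to 0.0911), as did the epithelial covariate (0.172) and the arterial covariate (0.840). With the arterial covariate its log2 difference was -0.38 instead of -0.95, and 0 of all 9277 genes passed. Crim1 of the same list measured 505 ± 28.4 and 493 ± 25.5 CPM (limma adjusted p = 0.760).

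**Figure D5:**
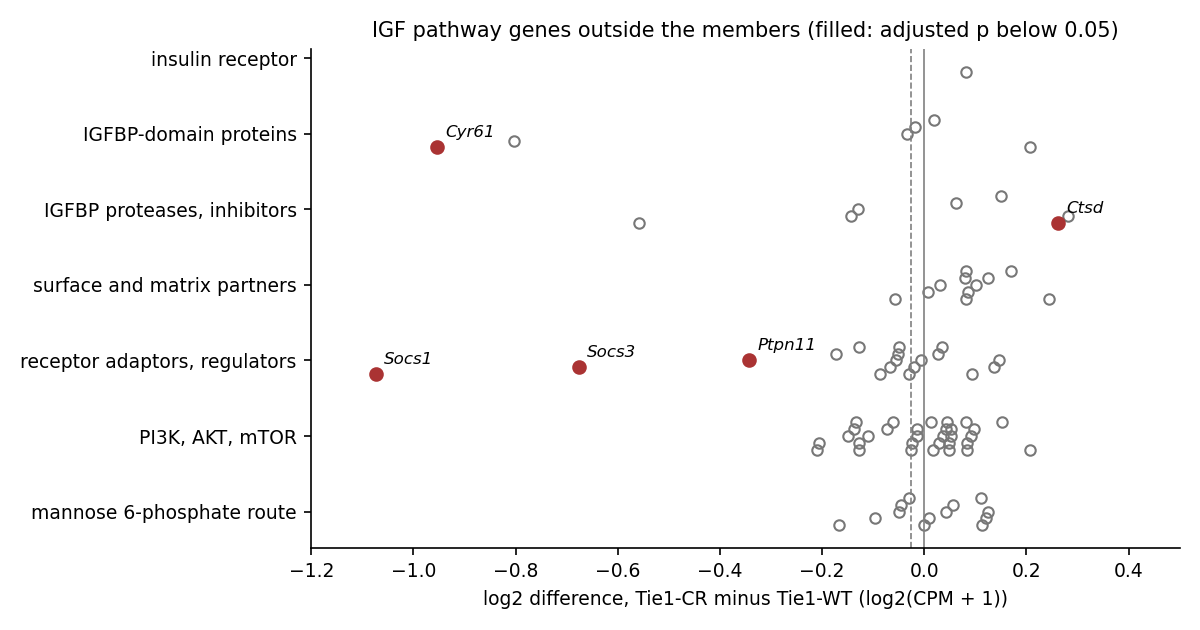
Log2 differences (Tie1-CR minus Tie1-WT, log2(CPM + 1)) of the 87 measured IGF pathway genes outside the 6 members, by list, with filled points for limma adjusted p below 0.05; the dashed line is the median of all genes. The 5 filled genes are Socs1, Cyr61, Socs3 and Ptpn11 below 0 and Ctsd above it.

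Markers of other cells were read beside Igfbp5. No value in the table is 0. Of 12 lung epithelial markers 9 were measured and 3 rose (Sftpd, Cyp2f2 and Cbr2), with sums of 330 to 724 CPM in Tie1-WT and 550 to 891 CPM in Tie1-CR. The log2 difference was above 0 for 7 of the 9 and below 0 for 2. Those 2 were Ager (-0.54, limma adjusted p = 0.511) and Hopx (-0.17, limma adjusted p = 0.383). With the mean of all 9 as a covariate, the Igfbp5 difference was 0.77 log2 (SE 0.19) and no longer passed. In this fit 16 of all 9277 genes passed, against 376 without the covariate, so the lost call is not particular to Igfbp5. All 8 arterial endothelial markers were measured and 1 rose (Hey1), with sums of 2929 to 3504 and 3636 to 4240 CPM that did not overlap. With their mean as a covariate, Igfbp5 differed by 0.95 log2 (SE 0.32), against 0.92 (SE 0.16) without it. It did not pass, but 0 of all 9277 genes passed in this fit, so the lost call is not particular to Igfbp5.

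For the remaining types the sums overlapped. The 7 measured of 8 venous endothelial markers summed to 4478 to 5422 CPM in Tie1-WT and 4768 to 6321 CPM in Tie1-CR. The largest parts of this sum were Vwf, also a pan-endothelial marker, and Lyve1, at means of 3530 and 1006 CPM. The 6 aerocyte markers summed to 4620 to 6263 and 4754 to 5634 CPM, and the 6 general capillary markers to 13221 to 15161 and 14659 to 15796 CPM. The largest part of the aerocyte sum was Kdr, also a pan-endothelial marker, at a mean of 2638 CPM. The venous and aerocyte sums therefore cannot be read as amounts of those cells. Of the genes of the venous, aerocyte and general capillary lists 0 passed (limma). The 4 measured of 8 lymphatic markers, led by Lyve1, summed to 1087 to 1651 CPM in Tie1-WT and 1179 to 1526 CPM in Tie1-CR. Most of this came from Lyve1, which is also in the venous list, and Flt4, at means of 1006 and 304 CPM. Mmrn1 and Reln had means of 30.7 and 10.4 CPM, so the sum cannot be read as an amount of lymphatic cells. The 5 measured of 12 fibroblast markers summed to 25.5 to 100.2 and 20.7 to 90.9 CPM, and the 3 measured of 10 smooth muscle and pericyte markers to 30.4 to 55.7 and 23.7 to 70.6 CPM. With these mesenchymal markers as a covariate, the Igfbp5 difference was 0.95 log2 (SE 0.14). Of 10 leukocyte markers 2 were measured. Cd68 fell from 10.7 ± 1.30 to 5.30 ± 1.05 CPM, and Lyz2 measured 37.8 ± 21.8 CPM (SD, n = 4) and 76.2 ± 21.9 CPM (SD, n = 5) (limma adjusted p = 0.0669). Lyz2 measured close to the epithelial marker Sftpa1, which lay at 35.2 ± 21.1 and 74.4 ± 23.7 CPM. The sum of Cd68 and Lyz2, 30.6 to 76.9 and 60.2 to 118 CPM, is mostly Lyz2 and cannot be assigned to leukocytes. The 3 measured platelet markers of 5 summed to 24.3 to 90.9 and 62.4 to 89.7 CPM. Prox1, Dcn, Pdgfrb and the mesothelial markers are not analysed here. The part of venous cells, aerocytes, general capillary cells, lymphatic cells, leukocytes and platelets in the Igfbp5 difference was not tested.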

How the data were processed

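RNA of lung endothelial cells was extracted with a PicoPure kit and amplified as cDNA by a SMARTer Ultra Low library kit, per the labels' protocols. STAR 2.7, GRCm38.p6 and mm10 are named, per the submitters' processing notes. For the counting tool, annotation, strand setting and gene filter nothing is stated. The authors deposited 1 table that they call TPM. Its deposited values fit CPM: per library, 100% are whole multiples of a single step, within 0.01 reads, from which depth and reads per gene were inferred. They are inferred values, so no count model was fitted to them. Each of the 9277 genes reaches at least 10.01 CPM in some library, so lower genes cannot be assessed.

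Values were used as log2(CPM + 1), which understates changes of low genes, after a filter (1 CPM or more in 4 libraries) that removed no gene. All genes were tested with limma 3.58.1 (R 4.3.3, trended empirical Bayes, Benjamini-Hochberg adjustment, threshold 0.05), tested on simulated data. Lengths and positions came from GENCODE M21 on GRCm38, which matched 97.5% of symbols. Figures were drawn with matplotlib 3.10.9. Every pair of libraries differed by more than counting error (lowest chi-square per degree of freedom 21.4).

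The members, lists and motifs were chosen with earlier results of these data known. Named are the 6 members, Tie1, the called genes and the 2 most abundant of each pathway list, the 5 genes most like Igfbp5 and Igf1r (1 of those like Igf1r is not reported here), and the top marker of a list. Lyz2, Sftpa1, Ager, Hopx, Flt4, Mmrn1, Reln and the called markers (Erg, Hey1, Cd68, Sftpd, Cyp2f2, Cbr2) were named after their values were seen. Other genes were named as background. Alternatives covered the pseudocount, filter, scaling, variance model, a replicate block, marker covariates and each library left out. The epithelial and arterial covariates were added after seeing the data.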

Additional observations from a re-analysis of the deposited data

Results flagged for a closer look

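In 44 groups of libraries examined for a library far from the others, 2 were flagged. Chance flags about 5% of groups, so this count is about that of chance. Igf1r in Tie1-WT replicate 2 measured 110.45 CPM, while the other 3 Tie1-WT libraries lay between 92.1 and 94.7 CPM. Akt1 in Tie1-CR replicate 1 measured 373 CPM, while the other 4 Tie1-CR libraries lay between 336 and 346 CPM.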

How the results depend on the processing

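The Igfbp5 difference kept its direction in all 21 alternatives, from 0.77 to 1.05 log2, and stayed past the threshold in 18. It no longer passed without Tie1-WT replicate 1 (0.84 log2; with each library left out it ran from 0.82 to 1.05) or with epithelial (0.77) or arterial (0.95) markers as a covariate. Igf1r, Igf2r and Igfbp4 kept their signs in every alternative.

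The 376 called genes became 661 with library weights, 16 with the epithelial and 0 with the arterial covariate (735 genes at an unadjusted p under 0.05 in limma), and 60 to 355 with a library left out, the lowest without Tie1-WT replicate 1. Leaving out replicate 2 or 3 of Tie1-WT left 135 or 154, and leaving out replicate 4 of Tie1-CR left 183. Lower genes made up 68.4% of the calls, 51.6% with TMM scaling and 50.8% with quantile normalization. With the replicate block 183 genes were called, 38 higher and 145 lower. Igfbp5 then differed by 0.95 log2 and Ctsd did not pass (limma adjusted p = 0.0760). Correlations of same-numbered deviations were -0.14, 0.00, -0.06 and 0.19. Tie1-WT replicate 4 correlated best with the Tie1-CR library of its own number, and replicates 1, 2 and 3 did not. Whether the numbers pair the libraries is not stated in the labels and was not tested.

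Signs turned for values near 0. Library weights gave 0.11 for Igfbp3 and 0.0092 for Nedd4, and TMM scaling 0.0175 for Nedd4 and 0.0090 for Phlpp1. Quantile normalization gave -0.0062 for Akt1, and the fibroblast and mural covariate 0.00041 for Nedd4. The epithelial covariate gave 0.0214 for Cd93 and -0.0087 for Akt1. The arterial covariate gave 0.42 for Igfbp3, -0.33 for Igfbp7, 0.0758 for Crim1, 0.29 for Cd93, -0.0408 for Akt1 and 0.19 for Phlpp1. With a library left out, the range was -0.27 to 0.0541 for Igfbp3, -0.0117 to 0.20 for Igfbp7, -0.0627 to 0.00081 for Crim1, -0.0315 to 0.0149 for Nedd4, -0.0119 to 0.0329 for Akt1 and -0.10 to 0.0737 for Phlpp1. The causes were not tested. The planned count models on recovered reads were not run. Genes under 10 CPM in every library are beyond the reach of this table.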
